A study of Mus musculus with 14 samples.

Results

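Expression of the glucocorticoid receptor Nr3c1, of 6 of its classical target genes and of 3 genes of metal handling was examined in livers of high-fat-fed mice, with and without an injection of mesenchymal stem cells (MSCs). The targets were Fkbp5, Tsc22d3, Sgk1, Dusp1, Zbtb16 and Tat, and the metal genes were the metallothioneins Mt1 and Mt2 and the zinc importer Slc39a14. Each gene was read from the probe set annotated to it alone, and 10 of the 10 genes named had exactly 1 such probe set, out of 19938 genes with a probe set of their own. Had a gene had several, that with the highest mean over the 14 arrays would have been taken.

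All mice were C57BL/6 males, 24 weeks old, kept on high-fat feed over 20 weeks, and no lean or untreated group was compared. Of these, 7 received MSCs (HFM) and 7 received saline (HFS), and livers were collected 24 hours later. The MSCs were human bone marrow cells given into a tail vein, so the donor cells and the recipient were of different species, and saline controls for the injection but not for the presence of foreign cells. Total RNA of each frozen liver was hybridised to 1 Affymetrix mouse gene array, and the deposited values are log2 expression, on which a difference of 1 is a doubling.

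Glucocorticoids are adrenal steroids that rise with stress and before waking. They bind the receptor in the cytoplasm, where chaperones hold it ready, and the receptor then moves to the nucleus and switches on genes with glucocorticoid response elements, a pair of inverted arms separated by a short spacer. In the liver these genes serve the supply of glucose and the breakdown of amino acids, and elsewhere they restrain inflammation. Metallothioneins are small cysteine-rich proteins that bind zinc and copper. Their genes respond to zinc through the sensor Mtf1, which binds metal response elements in their promoters, and also to glucocorticoids and to interleukin 6. Slc39a14 carries zinc into hepatocytes during the acute phase response.

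The promoters of both metallothioneins are shown first because they carry the metal response elements by which these 2 genes are known, and a stretch before Sgk1 is shown because it carries a complete glucocorticoid response element. Windows from RefSeq on the mouse build GRCm38.p6 ran from 250 bases before to 50 bases after each transcription start. Of the 10 genes, 7 had such a window, and Nr3c1, Slc39a14 and Zbtb16 had none. Capitals mark the core of the metal response element, TGCACNC or TGCGCNC read on either strand, in Mt1 and Mt2. They mark the full palindrome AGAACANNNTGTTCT in Sgk1. The Mt1 window was chr8:94178839-94179138, the Mt2 window chr8:94172368-94172667 and the Sgk1 stretch chr10:21993671-21993745, each on the plus strand.
Mt1: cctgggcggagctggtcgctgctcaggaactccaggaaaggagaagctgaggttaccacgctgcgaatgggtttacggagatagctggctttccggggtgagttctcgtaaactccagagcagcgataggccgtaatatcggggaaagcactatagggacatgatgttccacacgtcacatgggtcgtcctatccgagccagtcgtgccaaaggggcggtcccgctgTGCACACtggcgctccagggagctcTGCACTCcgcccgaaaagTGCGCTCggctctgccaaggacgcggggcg
Mt2: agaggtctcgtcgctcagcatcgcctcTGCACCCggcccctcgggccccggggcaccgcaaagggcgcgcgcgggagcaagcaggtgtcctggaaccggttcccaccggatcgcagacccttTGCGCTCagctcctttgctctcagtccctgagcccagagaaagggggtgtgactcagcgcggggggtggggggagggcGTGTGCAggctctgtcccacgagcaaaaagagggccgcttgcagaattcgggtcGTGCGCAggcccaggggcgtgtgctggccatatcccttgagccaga
Sgk1: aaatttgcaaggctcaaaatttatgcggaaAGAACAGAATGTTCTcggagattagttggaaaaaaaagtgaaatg

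The Mt1 window held 3 cores, beginning at bases -23, +3 and +21 from the start, and 1.97% of all 32851 windows held at least 3. The Mt2 window held 4 cores, at -223, -128, -50 and +5, and 0.517% of all windows held at least 4. Both genes had 1 window, so these positions count from 1 annotated RefSeq start each. Whether transcripts in the liver begin there was not tested. A core of the A form was present in 12.6% of windows and of the G form in 15.4%. The windows of Dusp1 and Sgk1 held 1 core of the G form each. The full palindrome occurred in 3 of all windows (0.00913%), and 1 of them was a window of Sgk1, where it began at -189, in 1 of 6 windows of that gene. The single arm AGAACA, 2 of which make up each full palindrome, was found in 19.0% of all windows, in 1 of the 3 windows of Tsc22d3, and in none of those of Fkbp5, Dusp1, Tat, Mt1 and Mt2. The 6 windows of Sgk1 held 5 single arms, those of the palindrome included. A match describes the letters only, and these letters were searched for in no other part of the genes. Mt2 and Mt1 lie next to each other on chromosome 8, with 0 annotated genes between them.

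The comparison of HFM with HFS asked whether these genes differed in the liver 24 hours after MSCs were given. At an adjusted p of 0.05 (limma, Benjamini-Hochberg over 23410 probe sets) 0 of the 10 genes differed, as did 0 of all probe sets (0% called). At an unadjusted p of 0.05, 0 of the 10 genes passed against 6.47% of all probe sets, and at an unadjusted p of 0.01 with a 1.2-fold change, the cut-offs of the study without its Bonferroni correction, 0 of the 10 passed against 0.696%. Of the 10 differences 7 were above 0 and 3 below, with a median of 0.04, and over all genes 10063 were above 0 and 9875 below, with a median of 0.00. The median size of a difference, regardless of sign, was 0.106 for the 10 genes and 0.0630 for all genes. The 3 largest differences were those of Mt2, Mt1 and Dusp1, and for all 10 genes the values of both groups overlapped.

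**Figure D1:**
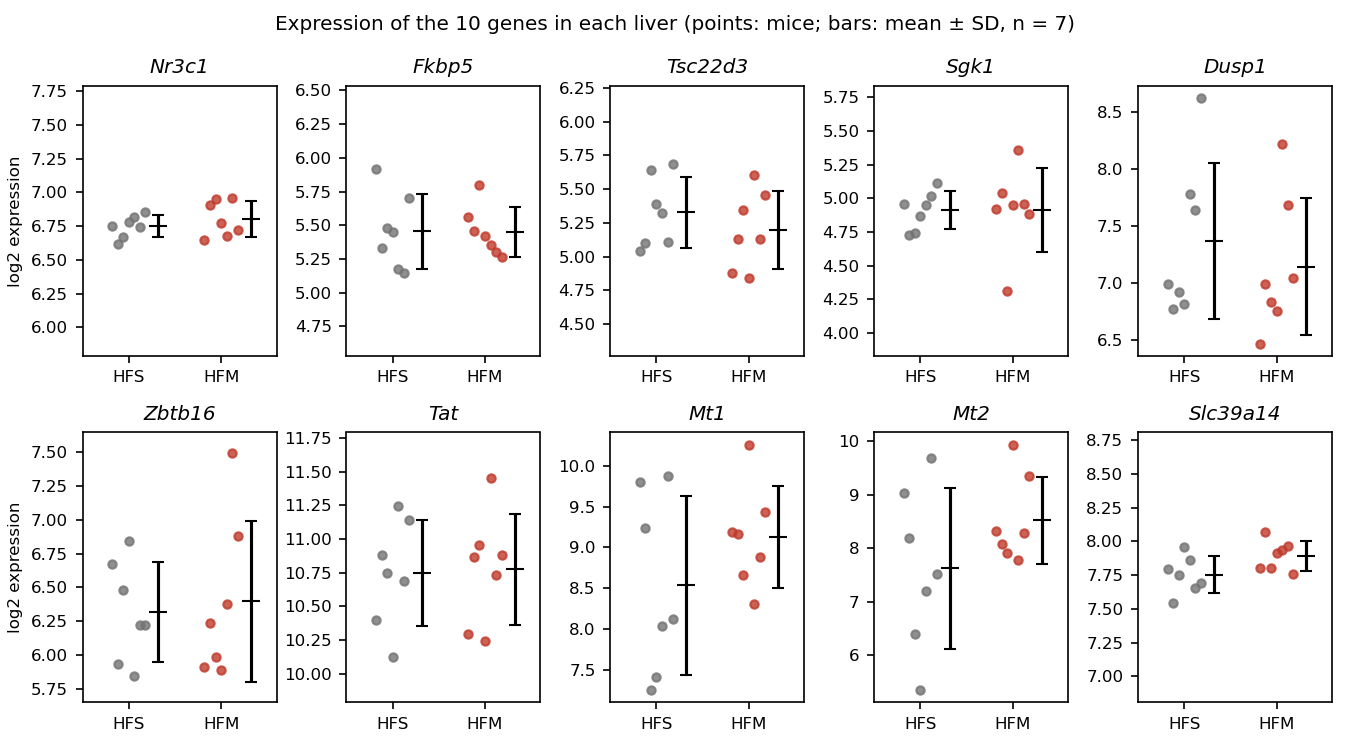
Log2 expression of each of the 10 genes in each liver, with HFS in grey and HFM in red; each point is 1 mouse, and the bars give mean and SD over 7 mice. In every panel the groups overlap, and the widest scatter is that of Mt2, from 5.35 in HFS4 to 9.93 in HFM4 (each panel has its own axis).

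Nr3c1 (probe set 10458569) encodes the receptor itself. It ranged from 6.65 to 6.96 in HFM mice, with a median of 6.78, and from 6.62 to 6.86 in HFS mice, with a median of 6.75. The groups overlapped in part, with 3 HFM mice above all HFS mice and 1 HFS mouse below all HFM mice. The difference was 0.06 (SE 0.07, limma adjusted p = 0.901, n = 7 and 7), and its 95% interval on the fold scale ran from 0.944 to 1.15. Among the 10 genes, Nr3c1 had the smallest range over the 14 mice, 0.338 on the log2 scale, and its SD within groups of 0.110 was at the 16.2 percentile of all genes.

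Fkbp5 (10449452) encodes a co-chaperone that lowers the affinity of the receptor for its hormone and is itself induced by it, a feedback loop. Its values ran from 5.26 to 5.80 in HFM mice (median 5.42) and from 5.15 to 5.92 in HFS mice (median 5.45). HFM3 and HFS1 stood highest in their groups. The difference was -0.01 (SE 0.11, limma adjusted p = 0.996), with a fold interval from 0.846 to 1.17.

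Tsc22d3, also called Gilz, encodes a mediator of the anti-inflammatory action of glucocorticoids. Its log2 values (10606989) ran from 4.84 to 5.60 in HFM mice (median 5.13) and from 5.04 to 5.69 in HFS mice (median 5.33). The lowest values were those of HFM4 and HFM1, below all HFS mice, and the highest those of HFS7 and HFS3, above all HFM mice. The mean was 5.20 ± 0.29 (SD, n = 7) against 5.33 ± 0.26, a difference of -0.13 (SE 0.13, limma adjusted p = 0.874). It was -0.07 without HFS7 or without HFM4 and -0.20 without HFM5.

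Sgk1 (10362073) encodes a kinase that regulates ion transport and is among the quickest targets of mineralocorticoids and glucocorticoids. It ran from 4.31 in HFM3 to 5.35 in HFM5, so that the lowest and the highest of all 14 mice were both HFM, with a median of 4.95. HFS mice lay between these, from 4.72 to 5.11, with a median of 4.95. The SD was 0.31 in HFM and 0.14 in HFS, and the difference of the means was 0.01 (SE 0.11, limma adjusted p = 0.996).

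Dusp1 (10449284) encodes a phosphatase that switches off p38 and JNK signalling. In HFM mice it ran from 6.47 to 8.22 with a median of 6.99, and in HFS mice from 6.77 to 8.62 with a median of 6.99. A few livers stood well above the rest in each group, HFS7 at 8.62, HFS5 at 7.78 and HFS6 at 7.64 among HFS mice, and HFM5 at 8.22 and HFM6 at 7.69 among HFM mice. The difference of the means was -0.22 (SE 0.28, limma adjusted p = 0.907), with an interval from -0.82 to 0.37. Without HFS7 it was -0.01, and without HFM5 it was -0.40.

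Zbtb16 (10593225) encodes a zinc finger transcription factor that glucocorticoids strongly induce in many tissues. It ran from 5.89 to 7.50 in HFM mice (median 6.23) and from 5.84 to 6.84 in HFS mice (median 6.22). HFM6 at 7.50 and HFM7 at 6.88 were above all HFS mice, whereas the other HFM values lay within the HFS range. The difference was 0.08 (SE 0.22, limma adjusted p = 0.961), and without HFM6 it was -0.10.

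Tat (10575349) encodes tyrosine aminotransferase, the first enzyme of tyrosine breakdown and a classical hormone-induced enzyme of hepatocytes. Its values ran from 10.24 to 11.45 in HFM mice (median 10.86) and from 10.13 to 11.24 in HFS mice (median 10.75). HFM5 was the highest and HFS4 the lowest of all mice. The difference was 0.03 (SE 0.18, limma adjusted p = 0.986), and the interval of the fold ran from 0.784 to 1.32.

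Mt1 (10574027) ran from 8.31 in HFM5 to 10.26 in HFM4 in MSC-treated mice, with a median of 9.16. In saline-treated mice it ran from 7.26 in HFS3 to 9.88 in HFS6, with a median of 8.13. The HFS mice were spread more widely, with 4 of them, HFS3, HFS4, HFS5 and HFS7, below all HFM mice and HFS1 and HFS6 above all HFM mice but HFM4. The mean was 9.13 ± 0.62 (SD, n = 7) in HFM and 8.54 ± 1.10 in HFS, a difference of 0.59 (SE 0.39), or 1.51-fold, with an interval from 0.857 to 2.65 (limma adjusted p = 0.820, two-sided exact permutation p = 0.235).

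Mt2 (10574023), the other metallothionein of hepatocytes, varied most. In HFM mice it ran from 7.77 to 9.93, with a median of 8.28. In HFS mice it ran from 5.35 in HFS4 and 6.40 in HFS3 to 9.69 in HFS6, with a median of 7.52. The same 4 HFS mice as for Mt1 were below all HFM mice, and 7 of 7 HFM mice were above the HFS mean. The mean was 8.52 ± 0.81 (SD, n = 7) in HFM and 7.62 ± 1.49 in HFS, a difference of 0.90 (SE 0.52), or 1.86-fold, with an interval from 0.872 to 3.97 (limma adjusted p = 0.806, exact permutation p = 0.191).

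The range of Mt2 over the 14 mice was 4.58 on the log2 scale, a 23.9-fold span. The SD of Mt1 within groups, 0.891, stood at the 99.9 percentile of all genes, and that of Mt2 was larger still. The differences of 0.90 and 0.59 were smaller than these spreads between mice of 1 group. Without HFS4 the difference of Mt2 was 0.52, and without HFS6 it was 1.24 with an unadjusted p of 0.0179 (adjusted p = 0.825). The genes are paralogs of closely similar sequence, and how far each probe set reads the other gene was not tested.

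Slc39a14 (10421309) differed by a small amount relative to a small spread. HFM mice ran from 7.76 to 8.07 with a median of 7.91, and HFS mice from 7.55 to 7.96 with a median of 7.75. All 7 HFM mice were above the HFS mean and 4 HFS mice were below all HFM mice, but HFS1, HFS4 and HFS5 lay among the HFM mice. The mean was 7.89 ± 0.11 against 7.75 ± 0.14 (SD, n = 7 each), a difference of 0.14 (SE 0.07), or 1.10-fold, with an interval from 0.995 to 1.22 (limma unadjusted p = 0.0613, adjusted p = 0.786, exact permutation p = 0.0530). HFM2 was the highest of all mice, and without it the difference was 0.11. Over the 14 mice Slc39a14 had r = 0.505 with the mean of 12 macrophage markers (permutation p = 0.0656, adjusted p = 0.246 over 60 relations, rho = 0.481, adjusted p = 0.326), with 0.629 within HFM and 0.151 within HFS mice, and r was 0.140 without HFM2 and HFM6. That mean ran from 6.62 to 7.62 in HFM and from 6.33 to 7.37 in HFS mice, and its part in the difference was not tested.

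**Figure D2:**
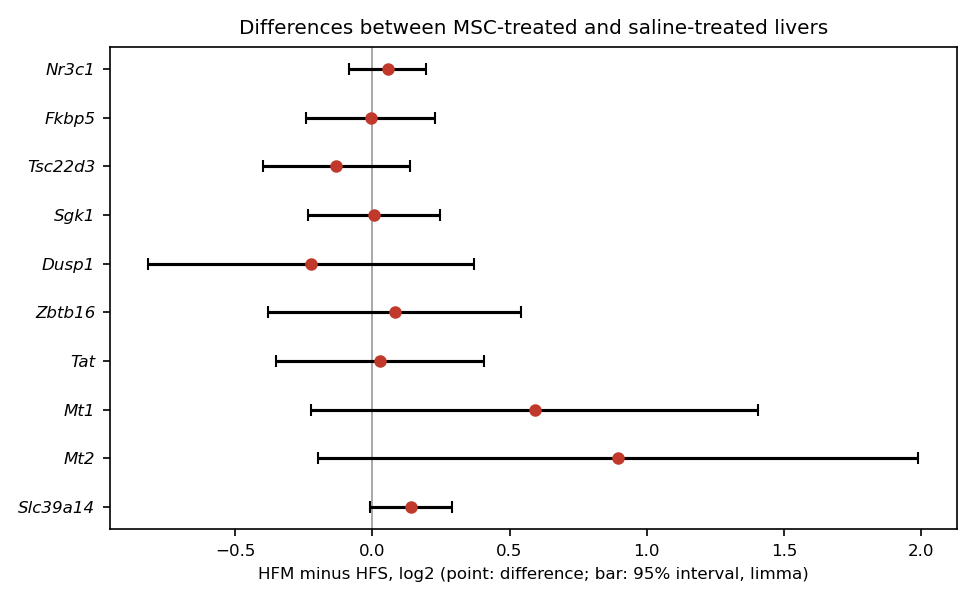
Difference of the group means, HFM minus HFS on the log2 scale, for the 10 genes; points are differences and bars are 95% intervals from limma. Every interval includes 0, and those of Mt2 (-0.20 to 1.99) and Mt1 (-0.22 to 1.41) are the widest.

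The 10 genes also varied between mice of the same group, and some varied together. Over the 14 mice, 45 pairs of the 10 genes were compared with Pearson's r and Spearman's rho, with two-sided permutation p-values adjusted over the 45 pairs, for which the smallest raw p is 1e-05. By r 2 pairs passed an adjusted p of 0.05, and by rho 1 pair passed. Of the 45 values of r 21 were above 0.

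Mt1 and Mt2 varied together, with r = 0.949 (permutation p = 1e-05, adjusted p = 0.00045) and rho = 0.969 (p = 1e-05, adjusted p = 0.00045). Within HFM mice r was 0.924 and within HFS mice 0.948, and without HFS3 and HFS4, the mice farthest from the median of Mt1, it was 0.941. The 3 mice with the highest Mt1, HFM4, HFS6 and HFS1, were among the 4 with the highest Mt2.

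Tsc22d3 and Mt1 varied in opposite directions, with r = -0.756 (permutation p = 0.00202, adjusted p = 0.0454) and rho = -0.745 (p = 0.00282, adjusted p = 0.0634). HFM4, with the highest Mt1, had the lowest Tsc22d3, whereas HFS3, with the lowest Mt1, had the second highest. The value was -0.683 within HFM mice, -0.831 within HFS mice, and -0.669 without HFS3 and HFS7. With each mouse left out in turn r stayed between -0.827 and -0.695, and the adjusted p was above 0.05 in 12 of the 14 cases, reaching 0.179 without HFM4. With Mt2 the value was -0.578 (permutation p = 0.0295, adjusted p = 0.221, rho = -0.688, adjusted p = 0.121).

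Among Tsc22d3, Tat and Dusp1 the 3 values of r were between 0.56 and 0.69, and none passed an adjusted p of 0.05. HFM5 was highest or second highest of all mice for Dusp1, Tat and Sgk1, and HFS7 was highest for Dusp1 and Tsc22d3. For Dusp1 and Tat r was 0.693 (permutation p = 0.00582, adjusted p = 0.0873, rho = 0.640, adjusted p = 0.144), and it was 0.528 without HFM5 and HFS7. For Tsc22d3 and Tat r was 0.610 (permutation p = 0.0205, adjusted p = 0.218, rho = 0.556, adjusted p = 0.232), with 0.942 within HFM and 0.293 within HFS mice, and the difference of these was not tested. Sgk1 and Dusp1 had r = 0.596 (permutation p = 0.0242, adjusted p = 0.218, rho = 0.666, adjusted p = 0.125).

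No pair with Fkbp5 or Zbtb16 passed. The values of r of Fkbp5 with the other 9 genes over all mice ran from -0.30 to 0.20, and those of Zbtb16 from -0.15 to 0.29. Within groups some values lay far apart. Zbtb16 with Tat had r = -0.881 within HFS and 0.274 within HFM mice, and Nr3c1 with Sgk1 had 0.868 within HFS and -0.510 within HFM mice. These differences between groups were not tested. The highest r of Nr3c1 was with Slc39a14, 0.485 (permutation p = 0.0788, adjusted p = 0.443, rho = 0.560, adjusted p = 0.232).

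**Figure D3:**
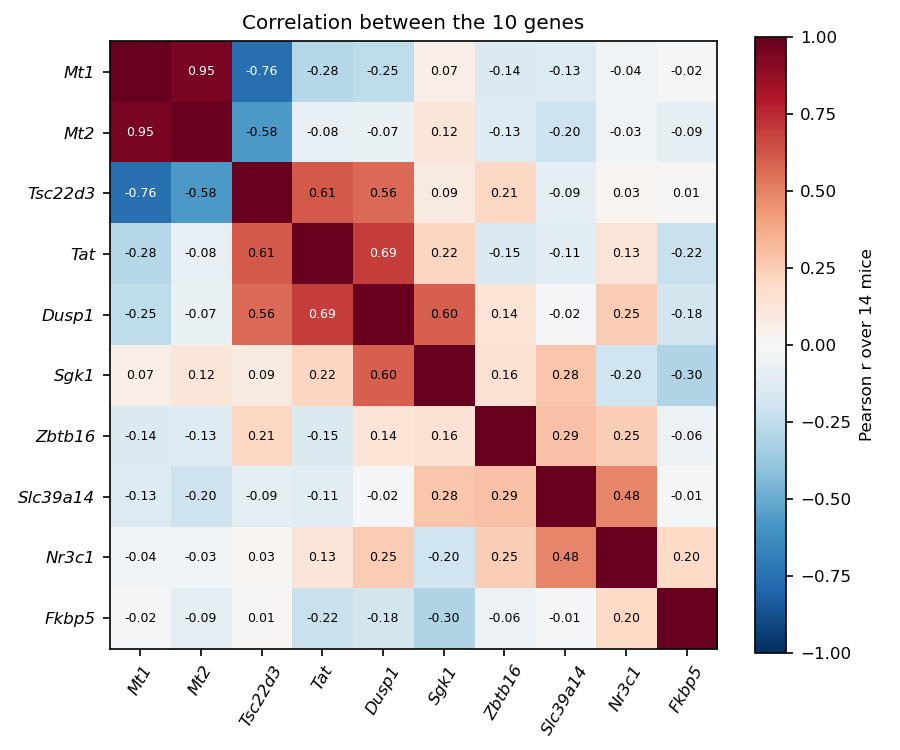
Pearson's r over 14 mice for each pair of the 10 genes, from blue (-1) through white (0) to red (1). Mt1 and Mt2 stand together at 0.95, Tsc22d3 opposes Mt1 at -0.76, and Tsc22d3, Tat and Dusp1 form a block from 0.56 to 0.69.

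**Figure D4:**
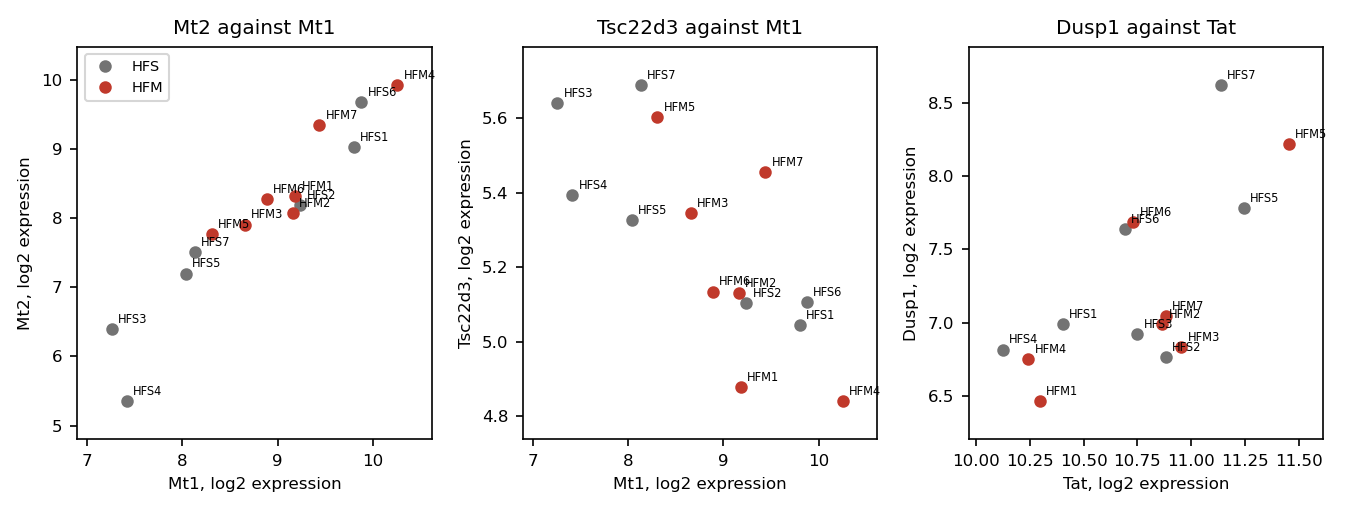
Log2 expression of Mt2 against Mt1, Tsc22d3 against Mt1, and Dusp1 against Tat; each point is the liver of 1 mouse, with HFS in grey and HFM in red. HFS3 and HFS4 lie at the low end of Mt1 and Mt2, HFM4 at the high end with the lowest Tsc22d3, and HFM5 and HFS7 lie highest for Dusp1.

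The genes most like each of the 10 over the 14 mice, out of 19938 and with 3 taken for each by r, are given as a description, since the highest of so many values is high by selection. Mt2 was followed most closely by Sulf2 (r = 0.910, with 0.934 within HFM and 0.893 within HFS mice), Selenow (0.882) and Fam107b (0.851, but 0.208 within HFM). Mt1 was followed by Fbxo31 (0.887), Myh14 (0.875) and Pdk2 (0.862), the last a kinase that inhibits pyruvate dehydrogenase. Nr3c1 was followed by Sh3bgrl (0.930), Actr1a (0.913) and Pcyox1 (0.873), and Fkbp5 by Pdxk (0.857), Vwa8 (0.839) and Car3 (0.835).

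Tsc22d3 was followed by Olfr1446 (r = 0.911), Kcnmb2 (0.887) and A3galt2 (0.862). Dusp1 was followed by Mpped2 (0.864), Faiml (0.847) and Slc25a25 (0.843), a calcium-regulated carrier of ATP into mitochondria, and Tat by Zfp106 (0.842), Tob1 (0.834) and H3c7 (0.821). Slc39a14 was followed by Rnpep (0.870), Cobl (0.859) and Serpina10 (0.845), and Zbtb16 by Prss54 (0.867), Mrpl49 (0.850) and Cd4 (0.824). For Sgk1 the values differed between the groups, a difference that was not tested. Olfr1 had r = 0.881 with it, 0.971 within HFM and 0.247 within HFS mice, and Tmem203 (0.841) and Msrb1 (0.817) had 0.220 and -0.06 within HFS mice.

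Around the receptor, 0 genes passed. Of 19 chaperones and cofactors 16 were measured, 11 above 0 and 5 below with a median of 0.04, and 0 passed an unadjusted p of 0.05 in limma. The smallest p-values were those of the chromatin remodelling ATPase Smarca4 (0.18, SE 0.09) and the coactivators Ncoa1 (0.14, SE 0.07), Ncoa2 (0.12, SE 0.08) and Med1 (0.09, SE 0.07). Of 8 genes that activate, carry or clear the hormone 7 were measured, 3 above 0 and 4 below with a median of -0.06, and 0 passed. They included Hsd11b1, which regenerates active hormone in the liver (-0.09, SE 0.09), its cofactor supplier H6pd (0.12, SE 0.09), the reductase Akr1c6 (-0.11, SE 0.10) and Hsd11b2, which inactivates the hormone (-0.06, SE 0.09).

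Of 28 other genes that glucocorticoids induce 27 were measured, 17 above 0 and 10 below with a median of 0.07. At an unadjusted p of 0.05 1 was higher and 1 lower in HFM, a share near the 6.56% of all genes past it. G6pc, which releases glucose from the liver, was 8.88 ± 0.66 (SD, n = 7) in HFM and 9.67 ± 0.53 in HFS, a difference of -0.79 (SE 0.26, limma unadjusted p = 0.00737, adjusted p = 0.714), with 1 of 7 HFM mice above the HFS mean. Rgs2, a brake on G protein signalling, was 0.32 higher (SE 0.13, limma unadjusted p = 0.0251, adjusted p = 0.768). Its means were low, 4.42 in HFM and 4.10 in HFS, near the array medians of 4.24 to 4.35. The transcription factor Klf9 differed by 0.20 (SE 0.10) and Arrdc3 by 0.42 (SE 0.21), and neither passed. Of 10 inflammatory genes that the receptor represses 4 were above 0 and 6 below with a median of -0.03, and 0 passed, the smallest p-values being those of Nos2 (-0.19, SE 0.09), Sele (-0.13, SE 0.07), Ccl2 (-0.10, SE 0.10) and Il1b (0.08, SE 0.10). Their mean level per mouse was low, from 4.34 to 4.51 in HFM and from 4.41 to 4.55 in HFS. The array medians were 4.24 to 4.35. Il6, Ptgs2, Nos2, Tnf and Il1b had group means below these medians, so their lack of difference says little. Icam1, Cxcl1, Ccl5 and Ccl2 had means above them, and Sele was close to them.

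Of 25 zinc genes, which comprise the sensor Mtf1, other metallothioneins and transporters, all 25 were measured, 16 above 0 and 9 below with a median of 0.03, and 0 passed an unadjusted p of 0.05. The exporter Slc30a4 was at -0.14 (SE 0.07), the importer Slc39a1 at 0.18 (SE 0.12), Mt3 at -0.11 (SE 0.08) and Slc30a2 at -0.09 (SE 0.08).

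Acute phase genes, by contrast, included several at the smaller p-values. Of 22 such genes and parts of the interleukin 6 pathway 21 were measured, 19 above 0 and 2 below with a median of 0.14, and at an unadjusted p of 0.05 6 were higher in HFM and 0 lower, against 681 higher and 627 lower of all 19938 genes. Those were Saa3 (0.81, SE 0.15), Saa1 (2.21, SE 0.61), Saa2 (2.12, SE 0.61), Lcn2 (1.30, SE 0.41), Hpx (0.29, SE 0.11) and Hp (0.27, SE 0.12), with limma adjusted p-values from 0.482 to 0.770. Mt2 and Saa1 had r = 0.646 over the 14 mice (permutation p = 0.0128, adjusted p = 0.154 over 60 relations, rho = 0.398, adjusted p = 0.481), and r was 0.116 without HFS3 and HFS4, the mice with Saa1 at 4.47 and 4.22, so the relation rested on these mice.

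The 60 relations set each of the 10 genes beside Saa1, Per1, Nr1d1, Dbp, G6pc and the mean of 12 macrophage markers, which were chosen after values had been seen, and 1 passed an adjusted p of 0.05. Tsc22d3 and G6pc had r = 0.808 (permutation p = 0.00054, adjusted p = 0.0324) and rho = 0.723 (p = 0.00469, adjusted p = 0.281), with 0.813 within HFM mice, 0.886 within HFS mice and 0.820 without HFM2 and HFS7. With each mouse left out in turn r ran from 0.752 to 0.857, and the adjusted p was under 0.05 in 7 of the 14 cases, the largest being 0.150 without HFS7. Dusp1 and G6pc had r = 0.709 (permutation p = 0.00405, adjusted p = 0.121, rho = 0.604, adjusted p = 0.295).

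Clock genes bear on these genes because glucocorticoids follow the day, and the hour at which livers were taken is not given in the sources used here. Of 16 clock genes 14 were measured, 9 above 0 and 5 below with a median of 0.02, and 0 passed an unadjusted p of 0.05, the smallest p-values being those of Ciart (-0.24, SE 0.14), Nr1d1 (0.37, SE 0.23), Cry2 (0.18, SE 0.12) and Cry1 (-0.12, SE 0.09). Mice of 1 group differed widely: Dbp, a daily output gene of the clock, ran from 6.13 in HFM5 to 9.14 in HFM2. HFM5, the HFM mouse with the highest Dusp1, Tat, Sgk1 and Tsc22d3, thus had the lowest Dbp of all mice, and also the lowest Nr1d1. HFM1 to HFM4 had Dbp at 8.37 to 9.14, Per3 at 6.08 to 6.45 and Arntl at 3.95 to 4.52. In HFM5 to HFM7 these were at 6.13 to 7.82, 4.58 to 5.19 and 4.90 to 5.55. This division was drawn from the values themselves, and not all clock genes followed it. Nr1d1 was 9.22 in HFM6 and 9.07 in HFM7, within the 8.92 to 9.43 of HFM1 to HFM4. Among HFS mice Dbp ran from 6.53 in HFS5 to 8.94 in HFS1. Over the 14 mice r of Dbp with Dusp1 was -0.632 (permutation p = 0.0150, adjusted p = 0.154, rho = -0.552, adjusted p = 0.295), with -0.918 within HFM and -0.310 within HFS mice and -0.453 without HFM5 and HFS5. With Mt1 it was 0.603 (permutation p = 0.0230, adjusted p = 0.154, rho = 0.530, adjusted p = 0.314), and the part of the clock in any difference was not tested.

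The tissue was checked by markers of its cells. Of 8 hepatocyte markers 6 were measured, with a mean level per mouse from 11.76 to 11.95 in HFM and from 11.78 to 11.91 in HFS, and 0 passed an unadjusted p of 0.05 in limma. Alb, however, had a difference of -0.09 (limma adjusted p = 0.801) with a two-sided exact permutation p of 0.00816, and 7 of 7 HFM mice were below the HFS mean and 5 below all HFS mice. Alb was picked after values had been seen, and the share of all genes with so small an exact p or such counts was not computed. Of 12 macrophage markers 12 were above 0 with a median of 0.30, and 5 were higher at an unadjusted p of 0.05 in limma (Mpeg1, Cd5l, C1qb, Cd68 and Marco, adjusted p from 0.714 to 0.770), against 681 of all 19938 genes, with a mean level per mouse from 6.62 to 7.62 in HFM and from 6.33 to 7.37 in HFS. That mean had r = 0.200 with Mt1 (permutation p = 0.494, adjusted p = 0.705, rho = 0.156, adjusted p = 0.794) and 0.185 with Mt2 (permutation p = 0.528, adjusted p = 0.716, rho = 0.231, adjusted p = 0.670). The highest value was with Nr3c1, 0.582 (permutation p = 0.0301, adjusted p = 0.154, rho = 0.420, adjusted p = 0.481), with 0.786 within HFM and 0.174 within HFS mice and 0.304 without HFM2 and HFM6. Among markers of other cells, 1 of 10 for neutrophils (Cxcr2) and 1 of 6 for stellate cells (Pdgfrb) were higher and 1 of 3 for B cells (Cd79a) was lower, and 0 passed for T and NK cells, endothelium, bile ducts, adipocytes, erythroid cells and pancreas. Cxcr2 ran from 2.49 in HFS7 to 3.29 in HFM2, below the array medians of 4.24 to 4.35. HFM2 stood apart on some neutrophil markers, with S100a8 at 6.84 against 3.07 to 4.71 in the other mice and S100a9 at 7.00 and Ngp at 5.95 also the highest. Not all of the 10 followed, since Camp was 4.68 in HFM2 against 4.90 in HFS7. In whole liver, fewer cells of a type and less RNA per cell cannot be told apart. Actb, the reference gene of the study's PCR, was 11.55 ± 0.17 (SD, n = 7) in HFM and 11.45 ± 0.16 in HFS, a difference of 0.10 (SE 0.08, limma adjusted p = 0.849).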

How the data were processed

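Liver RNA of 14 mice, 7 HFM and 7 HFS, was measured on Affymetrix Mouse Gene 1.0 ST arrays, 1 mouse per array. The authors summarized and normalized the probe intensities with Affymetrix Expression Console, and deposited 1 log2 expression value for each probe set and array. This step was RMA per the labels and PLIER per the methods. For its version, annotation and genome build the entry is: not given in the sources used here. Every value column was used. Values ran from 1.33 to 14.06, the medians of the arrays from 4.24 to 4.35, and pairs of arrays correlated at 0.970 to 0.991 over all 35556 probe sets. On arrays the number of mice limits the precision, and there are no counts. Each mouse is taken as 1 biological replicate, and batches, litters and scan dates are unknown.

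The 10 genes and the lists beside them were chosen with earlier results of these data known. Differences, HFM minus HFS, were fitted with limma 3.58.1 (lmFit and eBayes, no covariate) in R 4.3.3 over 23410 probe sets that carry 1 or more symbols, and p-values were adjusted by Benjamini-Hochberg over all of them. The other 12146 probe sets have no symbol and were left out. A gene of a list was read from its brightest probe set with 1 symbol. The symbols of the 10 genes matched RefSeq identifiers. Genes named beside the 10 are, for each list, the 4 with the smallest p and those at an unadjusted p under 0.05 where 5 or fewer, the 3 most similar genes of each of the 10, and Actb. All 6 acute phase genes at that p, 5 macrophage markers, the members of the 60 relations, Alb, 3 neutrophil markers with Camp beside them and single markers of other cells were named besides. Per3, Arntl and the remaining inflammatory genes were named for their levels. Single genes were also compared by a two-sided exact permutation test over all 3432 assignments, for which the smallest p is 0.000583. Correlations used 100000 permutations. The lists are described by counts and medians with no test. Scripts were tested on simulated data.

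The alternatives comprised quantile normalization, subtraction of array medians, array weights, blocking on the replicate number, testing the brighter, all or 1 probe set per gene, a prior trended and robust or none, the exact test in place of limma, and leaving out each mouse. Correlations of deviations from group means, and the 60 relations with other genes (with each mouse left out for the 1 that passed), were added after the data were seen.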

Additional observations from a re-analysis of the deposited data

Results flagged for a closer look

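Within groups of 7, Dixon's ratio was taken for 38 genes in both groups, 76 groups in all. In 6 groups 1 mouse stood apart from the rest. The cut-off is set for about 1 in 20 independent groups. The genes beyond the 10 were picked by their p in these data, and all share the same mice, so the 6 cannot be read against that rate. None of the 6 was among the 20 groups of the 10 genes. HFS3 was low for Klf9, at 6.86 (next 7.29), and for the zinc importer Slc39a1, at 6.06 (next 6.59), and the same liver had the lowest Mt1 of all mice. HFM5 had the clock repressor Nr1d1 at 7.44 (next 8.92). The other 3 stood high: Hsd11b1, which regenerates active glucocorticoid, was 9.62 in HFM3 (next 9.20), Rgs2 was 4.49 in HFS5 (next 4.12) and Il1b was 4.41 in HFS6 (next 4.06).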

How the results depend on the processing

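Of 240 recomputed differences of the 10 genes, 221 kept their direction and 19, of Fkbp5, Sgk1, Tat and Zbtb16, changed sign. Blocking, the choice of probe sets tested, the prior and the exact test leave the difference itself unchanged. Many of the 221 therefore kept their direction by construction, and only normalization, array weights and leaving out a mouse could change it. Of the 230 with an adjusted p from limma 0 passed 0.05, and 10 had an unadjusted p under 0.05. Fkbp5 was 0.0214 with array medians subtracted, and Tat was -0.0914 with array weights. With each mouse left out, Fkbp5 ran from -0.0636 to 0.0711, Sgk1 from -0.0670 to 0.107, Tat from -0.0862 to 0.115 and Zbtb16 from -0.102 to 0.169, whereas Mt1 ran from 0.38 to 0.81, Mt2 from 0.52 to 1.24, Tsc22d3 from -0.20 to -0.07 (and -0.23 with array weights) and Slc39a14 from 0.11 to 0.18. The smallest limma adjusted p of any of the 10 under any alternative was 0.455 (Slc39a14 without HFM7). The count of these genes past an unadjusted p of 0.05 was 1 with array medians subtracted (Slc39a14), 1 with array weights (Mt2) and 0 to 2 with a mouse left out, where Mt1 and Mt2 passed without HFS1 or without HFS6 and Slc39a14 without HFM3, HFM7, HFS4 or HFS5. Probe sets past an adjusted p of 0.05 numbered 0 to 1 with a mouse left out (1 without HFS6). Correlated pairs numbered 1 under quantile normalization, 1 on deviations from group means and 1 to 3 with a mouse left out. Mt1 with Mt2 passed each time, and Tsc22d3 with Mt1 ended at an adjusted p of 0.0563 under quantile normalization and of 0.0627 on deviations. The cause was not tested. Subtracting medians moved the median difference of all probe sets to 0.03.

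Over the probe sets with a symbol, the replicate numbers showed no general pairing of the mice. Correlations of deviations of same-numbered mice ran from -0.20 to 0.14, and 1 of 7 was over 0.1. Of 7 HFM mice, 0 correlated best with their own number. These correlations cannot show whether single genes follow the number. Tat, picked after values had been seen, was highest at number 5 in both groups, 11.45 in HFM5 and 11.24 in HFS5. It was lowest at number 4 in both, 10.24 in HFM4 and 10.13 in HFS4, and whether it follows the number was not tested. With the replicate number as a block 0 of the 10 genes passed an unadjusted p of 0.05, and 1324 in place of 1514 probe sets did. The unadjusted limma p fell from 0.318 to 0.176 for Tsc22d3, from 0.443 to 0.246 for Dusp1 and from 0.883 to 0.722 for Tat. It also fell for Fkbp5, Sgk1 and Mt1, and rose for Nr3c1, Mt2, Slc39a14 and Zbtb16. The mean of several probe sets per gene was not run, since each of the 10 has 1. With 7 mice per group and the spread between mice of Mt1 and Mt2, the intervals of their differences ran from 0.857-fold to 2.65-fold and from 0.872-fold to 3.97-fold.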
